A study of Homo sapiens with 8 samples.

Results

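The mitochondrial respiratory chain genes were taken by symbol: those beginning with ATP5, UQCR, NDUFV, NDUFS, NDUFC, NDUFB or NDUFA, those beginning with COX4, COX5, COX6, COX7 or COX8, and the SDHA, SDHB, SDHC and SDHD genes. Of the 19483 genes named on the array, 98 that met this rule are described here, with 121 probes. Of these genes, 94 encode proteins and 4 are non-coding genes or pseudogenes that share the letters of the symbol (NDUFA6-DT, NDUFB2-AS1, NDUFAF4P1 and UQCRBP1). The rule also takes in the NDUFAF genes, which encode assembly factors of complex I. NDUFA4 and NDUFA4L2 are now named COXFA4 and COXFA4L2 and were counted with complex IV. UQCRHL, ATP5MF-PTCD1 and NDUFC2-KCTD14 met the rule but no probe was named for them. In all, 92 of the 98 genes, with 115 probes, were tested. A probe had to be well above background on every array of siControl or of siRND3 at 24 h to enter the test, and each of these 115 probes was so on all 8 arrays. The untested genes were COX7A1, COX7B2, COX8C, COXFA4L2, NDUFAF4P1 and UQCRBP1.

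The respiratory chain sits in the inner mitochondrial membrane. Complex I (NADH dehydrogenase) and complex II (succinate dehydrogenase) feed electrons into ubiquinone, complex III (ubiquinol-cytochrome c reductase) passes them to cytochrome c, and complex IV (cytochrome c oxidase) passes them to oxygen, while protons are pumped across the membrane by complexes I, III and IV. ATP synthase uses the resulting gradient to make ATP. Most subunits are encoded in the nucleus, and those encoded in mitochondrial DNA fall outside the rule and are not described here. Glioma cells are known for strong glycolysis beside respiration.

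Total RNA was measured in U87, a human glioblastoma cell line, after transfection with small interfering RNA against RND3 (siRND3), which encodes an atypical small GTPase, or with a non-silencing control (siControl). There were 3 siControl and 3 siRND3 arrays at 24 h and 1 of each at 48 h, all on 1 slide. All cells received the lipid transfection reagent, the methods give a pair of RND3 siRNAs and do not say which array received which, and the labels do not state whether replicates were separate transfections, so that p-values measure only the spread between these samples, which may be technical. The siRND3 arrays all lay in slide row 1 and the siControl arrays in slide row 2, and thus the row and the treatment cannot be told apart.

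RND3 itself was lower in every siRND3 library. Its normalised log2 signal at 24 h was 11.88, 11.91 and 11.90 in siControl and 10.12, 10.18 and 10.42 in siRND3, a difference of -1.66 (SE 0.095, limma adjusted p = 0.000346) that left 31.7% of the control signal, and at 48 h it was 11.48 in siControl and 9.84 in siRND3. Between 68.3% and 70.7% of probes were well above background on an array, and no spot was saturated. Of the 8 glial or glioma markers looked up, VIM, NES, CD44 and CHI3L1 were well above background on all 8 arrays, OLIG2 on 7 and S100B on 1, whereas GFAP and SOX2 were so on none. Each marker was counted by its probe that was well above background on the most arrays. Among markers of other cell types, PTPRC, CD68, PECAM1, CDH5, EPCAM and KRT8 each had at least 1 probe well above background on all 8 arrays. RBFOX3 and ALB were so on none. The part of these markers in the results was not tested.

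The genes encoding these subunits lie on many chromosomes, and their promoters were compared with those of other genes in a feature the rule did not use. Promoter windows running from 250 bases before to 50 bases after the annotated start (RefSeq, GRCh38.p14) were held for 79 of the 94 protein-coding members and for 15843 protein-coding genes in all. Short motifs were searched on both strands and counted where at least 1 window of a gene held them. The letters TGCGCA, the core bound by NRF1, a transcription factor known for nuclear genes of respiration, were found in 23 of the 79 members (29.1%) against 12.7% of all genes. AAGATGGCG, the core of YY1 sites, was found in 10 members (12.7%) against 3.21%, and CCGGAAGT, an ETS-family motif bound by GABPA, in 12 members (15.2%) against 6.97%. None of these motifs holds another within it, and a match is a description of the window, not a bound site. Shown here are the window of NDUFV2, the member called at 24 h for which a window was held, and those of SDHB and UQCRC1, which each hold an NRF1 and a YY1 match. The windows lie at chr18:9102449-9102748 (plus strand), chr1:17053983-17054282 (minus strand) and chr3:48609597-48609896 (minus strand). Capitals mark matches, and none of the 3 motifs matched in NDUFV2. The YY1 matches of SDHB and UQCRC1 lie in the 50 bases after the start and include the letters ATG. Matches at a coding start were not set apart in the counts.
NDUFV2: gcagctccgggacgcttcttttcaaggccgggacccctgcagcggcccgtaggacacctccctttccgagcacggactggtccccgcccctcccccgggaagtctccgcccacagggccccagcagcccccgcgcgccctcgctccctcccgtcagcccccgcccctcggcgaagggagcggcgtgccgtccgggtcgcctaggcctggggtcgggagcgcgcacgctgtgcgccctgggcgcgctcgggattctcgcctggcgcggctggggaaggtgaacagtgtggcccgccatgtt
SDHB: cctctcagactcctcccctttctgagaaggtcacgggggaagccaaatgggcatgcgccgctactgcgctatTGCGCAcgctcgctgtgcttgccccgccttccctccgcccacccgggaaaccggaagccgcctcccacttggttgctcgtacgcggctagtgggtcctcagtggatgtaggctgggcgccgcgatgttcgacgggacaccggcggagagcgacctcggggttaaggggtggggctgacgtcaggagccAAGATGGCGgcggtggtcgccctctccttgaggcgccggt
UQCRC1: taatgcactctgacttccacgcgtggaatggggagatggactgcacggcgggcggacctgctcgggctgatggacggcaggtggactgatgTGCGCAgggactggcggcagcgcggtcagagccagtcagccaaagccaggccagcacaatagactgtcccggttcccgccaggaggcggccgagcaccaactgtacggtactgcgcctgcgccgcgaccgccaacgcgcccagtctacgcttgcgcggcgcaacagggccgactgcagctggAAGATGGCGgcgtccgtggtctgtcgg

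At 24 h, most respiratory chain transcripts differed little between siRND3 and siControl cells. A gene was called when at least 1 of its probes passed an adjusted p of 0.05 over all 28762 probes tested and none passed in the other direction. By this rule NDUFV2, SDHC and UQCRB were lower in siRND3. These are 3 of the 92 members described (3.26%), where 9.26% of the 14805 genes tested were called lower and 7.16% higher. The share over all genes depended on the arrays used. Without siControl replicate 1, 2 or 3 it was 5.04%, 5.59% and 4.78% lower and 2.52%, 2.67% and 2.34% higher. Without siRND3 replicate 1, 2 or 3 it was 7.44%, 6.81% and 7.73% lower and 5.25%, 4.34% and 3.82% higher. The lower calls among members stayed at 3, or 4 without siControl replicate 3. Without adjustment, 9 members (9.78%) and 36.1% of all genes had a probe with a p under 0.05. The arrays average over all cells of a culture, so that fewer cells with a transcript and less of it per cell cannot be told apart.

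The size of the differences was small across the list. With 1 probe per gene, the brightest, the median difference (siRND3 minus siControl, log2) was 0.02 over members and 0.04 over all genes tested, and the median size regardless of sign was 0.07 against 0.16. Differences over 0.5 in size were seen in 1.09% of members and 11% of all genes. Members and all genes were not matched for signal level, and the median SE was 0.081 against 0.095. What part signal level has in the smaller sizes and fewer calls among members was not tested. The interval of the difference at 95% confidence lay wholly within 0.5 of 0 in 86 of the 92 members (93.5%) and in 63.1% of all genes. SDHC and UQCRB were called lower by dimmer probes, at -0.84 and -0.91. They enter these counts by their brightest probes, at -0.12 and 0.03. Like the p-values, the intervals measure only the spread between these samples, which may be technical. The groups did not overlap in 16 members, 12 with all siRND3 arrays above and 4 with all below (17.4%), against 41.1% of all genes. Spread between arrays was low: the SD of a member probe over 3 arrays ran from 0.0076 to 0.38 with a median of 0.054 in siControl, and from 0.0076 to 0.37 with a median of 0.084 in siRND3.

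**Figure D1:**
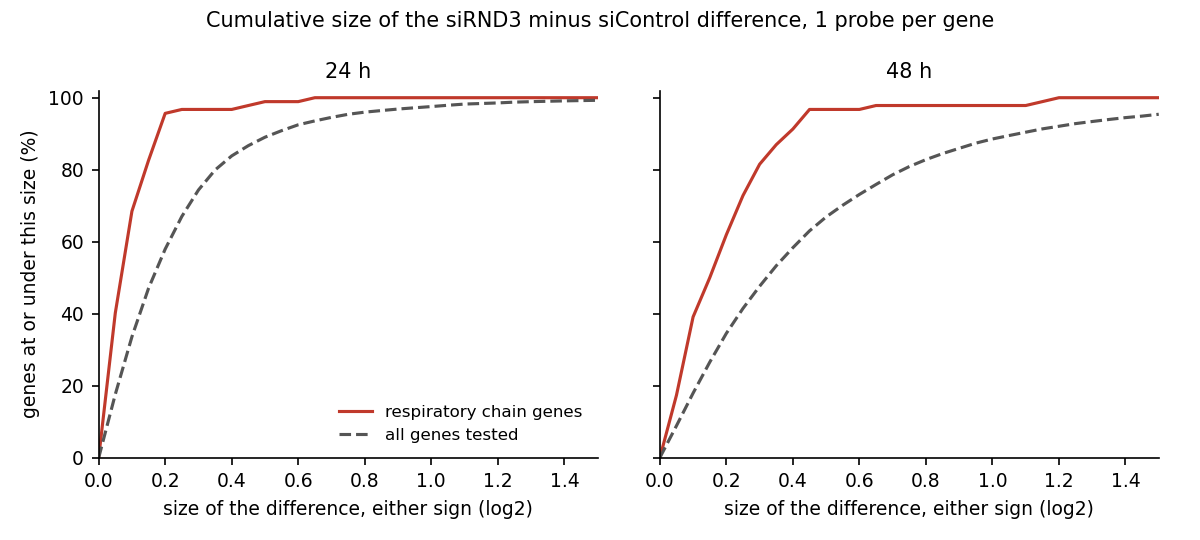
Cumulative share of genes (%) against the size of the siRND3 minus siControl difference (log2, either sign), at 24 h (mean of 3 arrays each) and 48 h (1 array each), with 1 probe per gene. The solid line gives the 92 respiratory chain genes and the dashed line all 14805 genes tested, and the solid line lies above the dashed line over most of the range, with a median size of 0.07 against 0.16 at 24 h and 0.145 against 0.32 at 48 h.

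**Figure D2:**
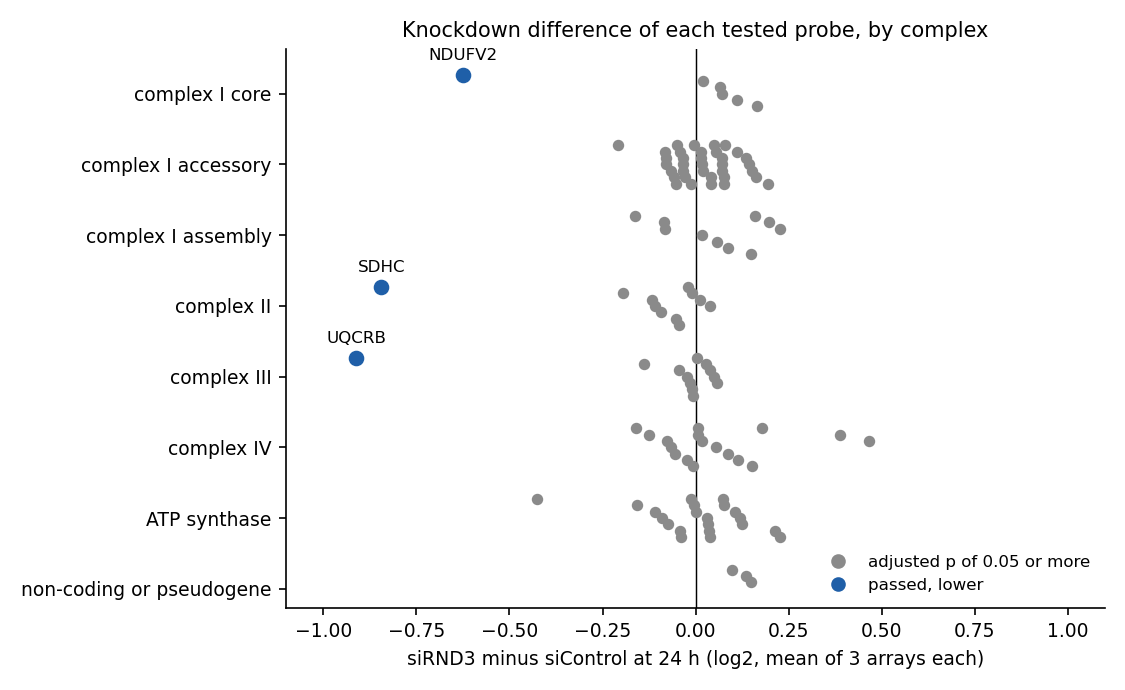
Difference at 24 h (siRND3 minus siControl, log2, mean of 3 arrays each) of each of the 115 tested probes, 1 point a probe, in rows by complex (vertical offset within a row has no meaning). The probes that passed an adjusted p of 0.05 are coloured and named: NDUFV2 at -0.62, SDHC at -0.84 and UQCRB at -0.91.

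In complex I, NDUFV2 was lower in siRND3. It belongs to the core, whose nuclear-encoded subunits hold the electron path from NADH to ubiquinone. NDUFV2 encodes an iron-sulphur subunit of the NADH-oxidising arm. Its log2 signal was 14.26, 14.18 and 14.24 in siControl and 13.59, 13.62 and 13.60 in siRND3, with no overlap and less spread within either group than between them. The difference was -0.62 (SE 0.068, limma adjusted p = 0.00297), or 64.9% of control. The core subunits NDUFS1, NDUFS3, NDUFS7, NDUFS8 and NDUFV1, did not pass, with differences from 0.02 (NDUFS8) to 0.16 (NDUFV1, which forms the NADH-binding site next to NDUFV2). Over the 6 core genes described, the median difference was 0.07.

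None of the 30 tested accessory subunits of complex I, which surround and stabilise the core, passed the test. Their median difference was 0.03, and with the brightest probe of each gene they ran from -0.08 (NDUFB4) to 0.20 (NDUFA2). The accessory probe with the largest difference was a dimmer probe of NDUFC2, a membrane-arm subunit. It read 8.21, 8.22 and 8.38 in siControl and 8.30, 7.86 and 8.01 in siRND3, groups that overlapped, with a difference of -0.21 (interval -0.51 to 0.09). The other NDUFC2 probe gave 0.07. Of the 8 assembly factors, which build complex I without staying in it, none passed at 24 h and the median difference was 0.07. The largest was a probe of NDUFAF6, at 0.23 (SE 0.090, limma adjusted p = 0.161), which is taken up again with the 48 h arrays.

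Complex II, the only complex both of the respiratory chain and of the citric acid cycle, had SDHC as its only called gene, and by only 1 of its 3 probes. SDHC encodes a membrane anchor that holds the haem and ubiquinone site. Probe A_33_P3326682 read 8.39, 8.49 and 8.46 in siControl and 7.65, 7.52 and 7.64 in siRND3, without overlap. The difference was -0.84 (SE 0.076, limma adjusted p = 0.00145), or 55.7% of control. The other SDHC probes, annotated to the same RefSeq transcript, gave -0.05 (A_24_P233850, interval -0.34 to 0.24) and -0.12 (A_33_P3410724, interval -0.35 to 0.11), and the called probe's interval, -1.03 to -0.66, lay below both. The called probe was the dimmest, with a siControl mean of 8.45 at 24 h against 9.19 (A_24_P233850) and 12.33 (A_33_P3410724). The mean of the 3 probes gave -0.34 (limma adjusted p = 0.0276).

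The other complex II genes did not pass. SDHB, the iron-sulphur subunit, read 12.78, 12.68 and 12.73 in siControl and 12.47, 12.56 and 12.57 in siRND3, without overlap and with a difference of -0.19 (SE 0.073, limma adjusted p = 0.143). SDHA, the flavoprotein that oxidises succinate, had 4 probes with differences between -0.09 and 0.01, and near-identical SDHA pseudogenes may share signal with them. SDHD, the partner anchor of SDHC, had 3 probes between -0.11 and 0.04. The interval of every SDHA and SDHD probe included 0 and stayed within 0.5 of it.

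Of the 8 complex III genes, UQCRB was called lower, again by 1 probe of the gene. UQCRB encodes a small subunit that helps to assemble the complex and takes part in ubiquinone binding. Probe A_33_P3299882 read 5.55, 5.37 and 5.86 in siControl and 4.58, 4.68 and 4.78 in siRND3, without overlap. The difference was -0.91 (SE 0.14, limma adjusted p = 0.00946), or 53.1% of control, and it was -0.35 after a normexp background correction and -0.52 in the authors' own log2 values, with the call kept in both. Probe A_23_P31671, annotated to a different RefSeq transcript of the gene, read 14.30, 14.28 and 14.30 in siControl and 14.33, 14.26 and 14.37 in siRND3, a difference of 0.03 (interval -0.14 to 0.19). The core subunits UQCRC1, UQCRC2 and UQCRFS1 (the Rieske iron-sulphur protein) and the small subunits UQCRH, UQCRQ, UQCR10 and UQCR11 did not pass, and their differences lay between -0.14 and 0.06.

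**Figure D3:**
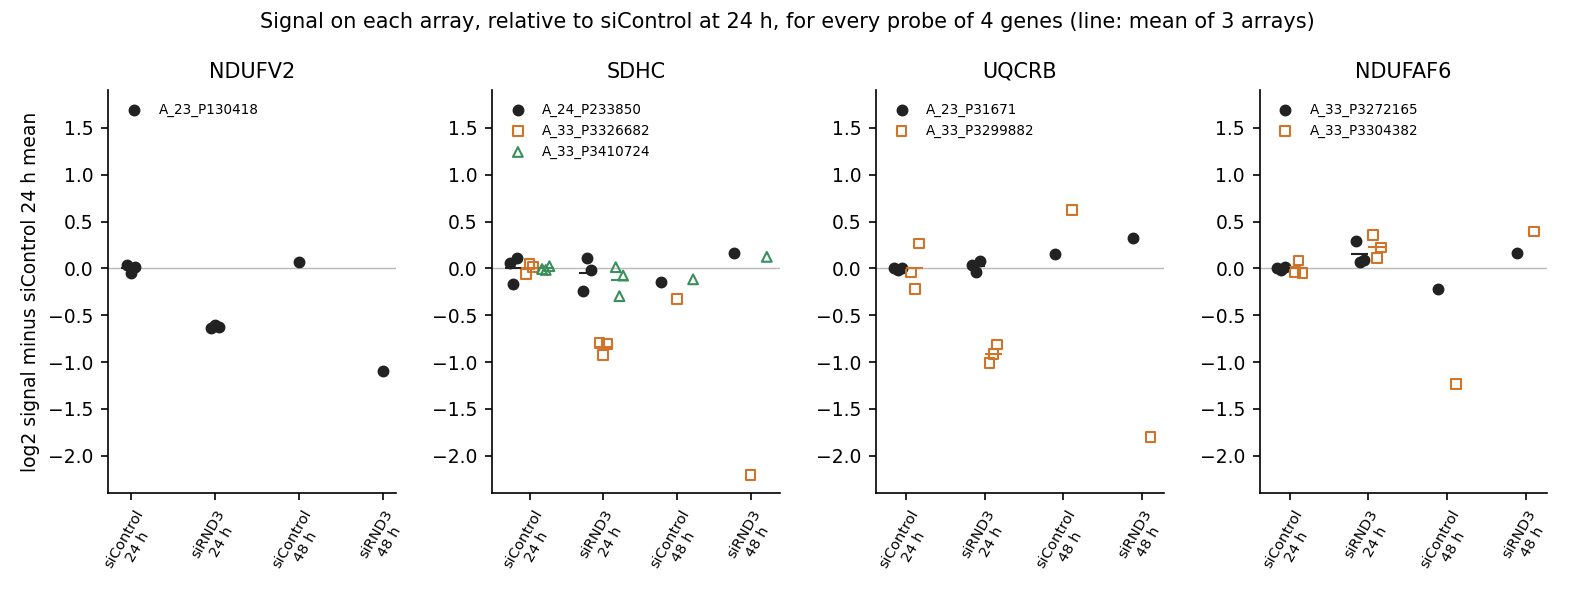
Log2 signal on each array, less the mean of the same probe in siControl at 24 h, for every tested probe of NDUFV2, SDHC, UQCRB and NDUFAF6, with 1 point an array, a symbol for each probe, and a short line at the mean of the 3 arrays at 24 h. The SDHC and UQCRB probes part from each other in siRND3 (-0.84 against -0.05 and -0.12 for SDHC, -0.91 against 0.03 for UQCRB at 24 h), while the NDUFAF6 probes part at 48 h in siControl.

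No complex IV gene passed among the 15 tested, and the median difference was 0.01. Of the widely expressed isoforms, COX4I1 was at 0.01, COX6A1 at -0.01 and COX7A2 at 0.02. COX8A was at 0.05, COX7B at -0.055 and COX6B1 at 0.11. COX5A was the lowest of the complex, at -0.16. COX4I2, the hypoxia-responsive alternative to COX4I1, had the largest difference of the complex. It read 4.65, 4.40 and 4.37 in siControl and 5.0, 5.06 and 4.76 in siRND3, with no overlap, and the difference was 0.47 (SE 0.12, limma adjusted p = 0.0550). It just missed the threshold, and it passed with the dim-probe filter set to all 6 arrays (adjusted p = 0.0465), without siRND3 replicate 3 (adjusted p = 0.0464) and by SAM, and under a normexp background correction the difference was 0.11 (adjusted p = 0.310). COX6B2, known as the testis isoform of COX6B1, had probes at 0.39 (SE 0.16, limma adjusted p = 0.165) and 0.15. Their siControl means at 24 h were 5.80 and 14.07, and what each probe reads was not tested. COX6A2, the heart and muscle isoform of COX6A1, was at 0.18 (interval -0.13 to 0.48). The muscle isoform COX7A1 and the testis isoforms COX7B2 and COX8C were well above background on none of the 8 arrays and COXFA4L2 on 1, so no difference is given for them.

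None of the 19 ATP synthase genes passed either, and the median difference was 0.03. The catalytic subunits ATP5F1A and ATP5F1B were at 0.03 and -0.11. The largest difference belonged to ATP5MJ, a small membrane subunit. It read 12.84, 12.93 and 12.24 in siControl and 12.39, 12.12 and 12.22 in siRND3, so that siControl replicate 3 lay among the siRND3 arrays. The difference was -0.42 (SE 0.19, limma adjusted p = 0.207), and it was -0.64 (adjusted p = 0.0397) without siControl replicate 3. ATP5IF1, which encodes the inhibitor of ATP hydrolysis by the enzyme, had probes at 0.21 (SE 0.070, limma adjusted p = 0.105) and 0.12. ATP5MGL, a near-identical copy of ATP5MG whose signal may be shared with it, was at 0.03 and ATP5MG at 0.12. The non-coding NDUFA6-DT and NDUFB2-AS1 did not pass, with probes from 0.10 to 0.15.

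Of the 92 tested genes, 18 had more than 1 tested probe, which gives a check of each gene within the arrays. Probes of UQCRB and SDHC were the 2 sets that differed by over 0.5 in the 24 h difference. Among the other genes the largest gap between probes was 0.28, in NDUFC2. NDUFV2 had 1 probe, so its values have no such check.

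At 48 h there was 1 array per group, so values are given without a test. The genes called at 24 h lay on the same side at 48 h with larger differences. NDUFV2 was 14.29 in siControl and 13.13 in siRND3, or 2.24-fold lower in siRND3. The called SDHC probe was 8.12 against 6.24 and the called UQCRB probe 6.22 against 3.79, which are 3.67-fold and 5.41-fold lower in siRND3. The remaining probes of these genes were at 0.25 and 0.30 for SDHC and 0.17 for UQCRB, on the other side of 0 from the called probes. The sizes differed with the processing: the 48 h difference of UQCRB was -2.44 here, -0.79 after normexp and -1.19 in the authors' values, and that of SDHC was -1.88, -1.21 and -1.48.

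Across the list, differences at 48 h were larger than at 24 h but few were past 2-fold. With 1 probe per gene, the median difference was 0.09 over members and 0.06 over all genes, 70.7% of members and 55.5% of all genes were above 0, and 3.26% of members and 33.1% of all genes differed by over 0.5. Counting any probe, 1 member was more than 1 log2 unit higher (NDUFAF6) and 4 were more than 1 lower (NDUFV2, ATP5MJ, SDHC and UQCRB), where 5.38% of all genes were higher and 8.06% lower by any probe. With 1 probe per gene, NDUFV2 and ATP5MJ were the members past that size, both lower, where 4.64% of all genes were higher and 6.82% lower. ATP5MJ was 12.98 in siControl and 11.86 in siRND3, 2.17-fold lower. COX4I2 was 4.36 in siControl and 4.97 in siRND3, a difference of 0.61. Accessory subunits again stayed within 0.5, from -0.09 (NDUFB8) to 0.44 (NDUFB5) with the brightest probe of each gene.

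**Figure D4:**
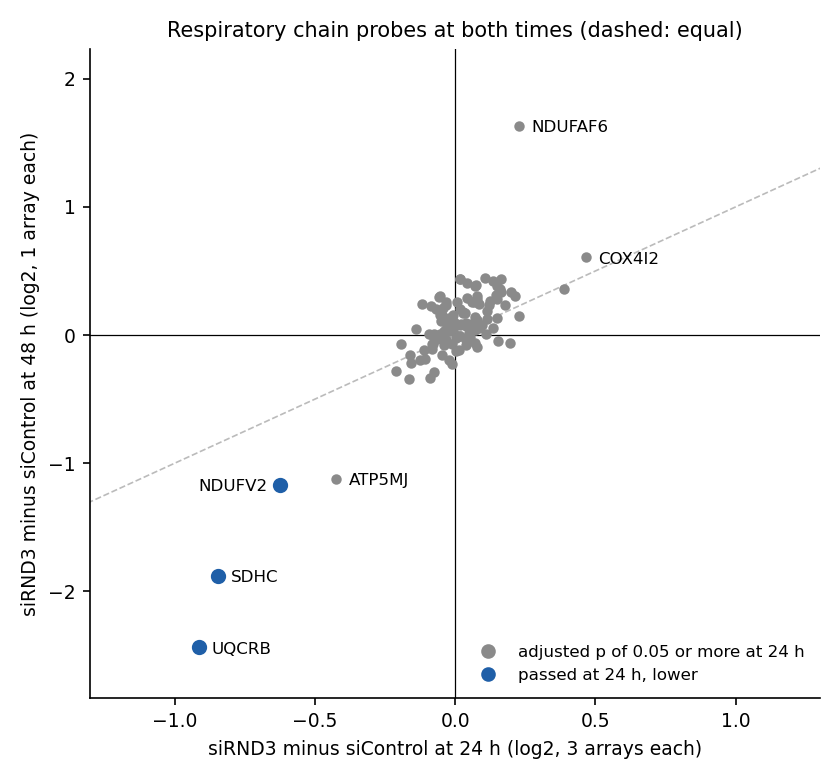
Difference (siRND3 minus siControl, log2) at 48 h (1 array each, vertical axis) against 24 h (3 arrays each, horizontal axis) for the 115 tested probes, 1 point a probe. Most points lie near 0 at both times, and the labelled ones are those past the test at 24 h or past 0.6 in size at 48 h, with NDUFAF6 at 0.23 and 1.63 and UQCRB at -0.91 and -2.44.

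The difference between the effects at the 2 times was tested in a model of all 8 arrays, in which the single 48 h arrays were assumed to vary like those at 24 h. In 3 of 92 members (3.26%) the effect differed between times, where 4.22% of all genes did. NDUFAF6, which takes part in early complex I assembly, moved up by 1.40 between the times (SE 0.18, limma adjusted p = 0.0261) by probe A_33_P3304382. SDHC moved by -1.03 (SE 0.15, adjusted p = 0.0315) and UQCRB by -1.52 (SE 0.27, adjusted p = 0.0443), each by the probe called at 24 h. The difference for NDUFV2 was -0.54 (adjusted p = 0.0959), which did not pass. These calls rest on few arrays: no member passed with siControl replicate 1, 2 or 3 or siRND3 replicate 3 left out, and only NDUFAF6 passed with siRND3 replicate 1 or 2 left out. Under normexp NDUFAF6 and NDUFV2 passed and SDHC and UQCRB did not.

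Most of the NDUFAF6 difference between the times lay in the control cells. Probe A_33_P3304382 read 7.67, 7.79 and 7.66 in siControl at 24 h and 6.47 in the single siControl array at 48 h, and 8.06, 7.82 and 7.93 in siRND3 at 24 h and 8.10 at 48 h. In siControl it fell by 1.23 with time (SE 0.13, limma adjusted p = 0.0125), the only member of the 92 called for a change with time in siControl (1.09%), where 5.17% of all genes were. That call was lost without siControl replicate 1 (adjusted p = 0.0508) or 3 (adjusted p = 0.0527). The other NDUFAF6 probe, annotated to the same RefSeq transcript, had a mean of 9.98 (SD 0.020, n = 3) at 24 h and read 9.76 at 48 h in siControl, a change of -0.22 (adjusted p = 0.348).

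In siRND3 cells, 3 members were lower at 48 h than at 24 h and none was higher (3.26%), where 12.8% of all genes changed either way. These were NDUFV2 (-0.48, limma adjusted p = 0.0300), SDHC (-1.36, adjusted p = 0.00284) and UQCRB (-0.89, adjusted p = 0.0373), the SDHC and UQCRB values being those of the probes called at 24 h. SDHC alone remained without siControl replicate 1, siRND3 replicate 2 or siRND3 replicate 3. UQCRB was called in the other direction under normexp, by its other probe. The change of the UQCRB probe called at 24 h was -0.28 in the authors' values and -0.17 under normexp. That probe did not pass in either, nor with no filter on dim probes.

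Other genes of mitochondrial respiration gave a view of the same pathway outside the rule. Of 5 further genes for electron-transfer proteins (CYC1, CYCS, ETFA, ETFB and ETFDH), only CYCS was called (20%). CYCS encodes the mobile carrier cytochrome c and was lower by 1 of its 3 probes. Probe A_24_P376556 fell by 0.34 on the log2 scale (limma adjusted p = 0.0324), and its signal was 12.68, 12.53 and 12.59 in siControl and 12.23, 12.27 and 12.29 in siRND3. The other CYCS probes gave -0.27 (A_33_P3313401, adjusted p = 0.0670) and 0.01 (A_32_P174083, adjusted p = 0.954). Of 46 further assembly factors, 1 was higher and 5 lower (13.0%), with a median difference of -0.01. COX15, which makes haem A for complex IV, was at 0.46 (adjusted p = 0.0249) and COX10, which acts just before it, at -0.53 (adjusted p = 0.0327). HIGD1A, a hypoxia-induced factor of complex IV, had the largest fall of those called, with 6.31, 6.33 and 6.37 in siControl and 5.66, 4.96 and 5.35 in siRND3 (difference -1.01, adjusted p = 0.0152). That value is of probe A_24_P548866, and the other HIGD1A probe gave -0.05 (adjusted p = 0.791). The other COX15 probe gave 0.36 (adjusted p = 0.106), and COX19 was at -0.59 (adjusted p = 0.0248).

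Among 20 regulators of respiratory genes, 2 were higher and 2 lower (20%), with a median of -0.001. PPARGC1B, a coactivator of mitochondrial biogenesis, was at 0.52 (limma adjusted p = 0.0474) by 1 probe and 0.43 (adjusted p = 0.0200) by another. GABPB2 was at 0.46 (adjusted p = 0.0177). GABPB1, the other partner of the DNA-binding subunit GABPA, was at -0.35 (adjusted p = 0.0383) by 1 probe and -0.26 (adjusted p = 0.196) by another. MYC was at -0.27 (adjusted p = 0.0499). NRF1 (-0.05), YY1 (0.18) and GABPA (0.29), whose motifs were searched in the promoters, did not pass. Of 19 enzymes of the citric acid cycle and pyruvate dehydrogenase, DLAT (-0.51) and CS (-0.44), citrate synthase, were lower and none was higher. Of 76 mitochondrial ribosomal proteins, 3 were higher and 2 lower (6.58%), with a median of 0.08, and the largest of those called was a probe of MRPL19 at -0.79 (adjusted p = 0.0152), whose other probe gave -0.05. These lists are small and their shares are set beside the 16.4% of all genes called in either direction as a description.

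**Figure D5:**
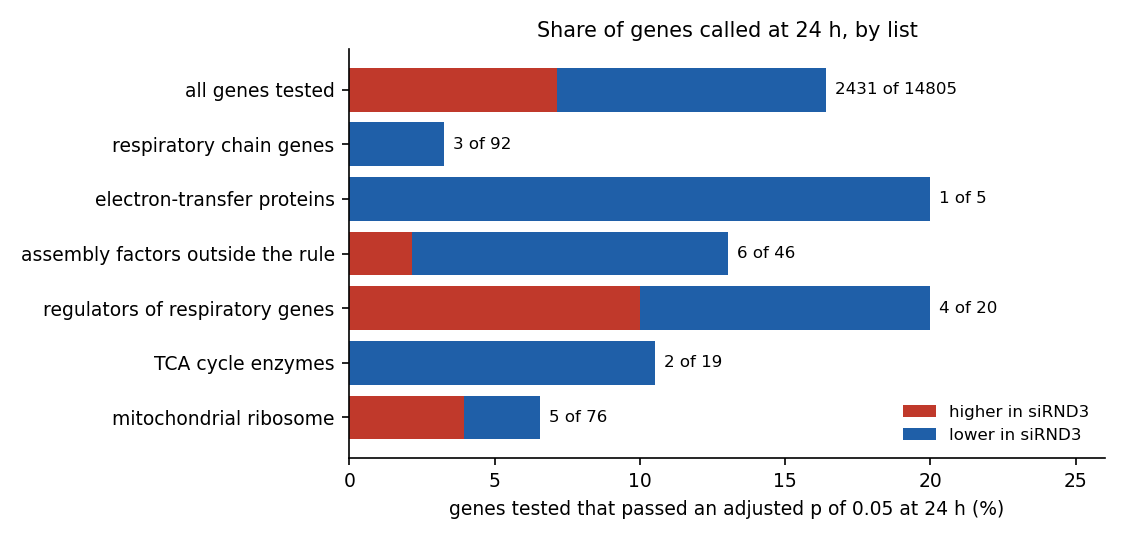
Share (%) of the tested genes in each list that passed an adjusted p of 0.05 at 24 h, higher (red) and lower (blue) in siRND3, with the number called of the number tested beside each bar. The respiratory chain genes stand at 3 of 92 and all genes tested at 2431 of 14805.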

How the data were processed

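The authors made Cy3-labelled cRNA from total RNA of U87 cells, hybridised it to 8 one-colour Agilent arrays and ran Feature Extraction 10.7.3.1. Per spot, the deposited files give a linear intensity, corrected for background within each array. The authors also deposited log2 values, which ranked spots as the spot median did (Spearman 1 on each array). The authors' methods state quantile normalisation. The centring of the deposited log2 values is not given in the sources used here, and the columns had medians of 6.82 to 6.84.

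Control spots (4259 of 62976) and outlier spots (0.364% to 0.530%) were left out. The log2 processed signal was quantile-normalised over the 8 arrays and spots of a probe were averaged, which gave 42405 probes. The files used here hold no gene names, so 25422 probes were named by matching the RefSeq accession, without version, to the RefSeq table of GRCh38.p14. A probe was tested if at least 50% of its spots were well above background on all 3 arrays of a group at 24 h. Tests were run in limma 3.58.1 (R 4.3.3), over the 6 arrays at 24 h and, for time and interaction, over 4 groups, with Benjamini-Hochberg adjustment over all 28762 probes and a threshold of 0.05. The number of arrays limits the precision. The fits were tested on simulated data.

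The members and all gene lists were chosen with earlier results of these data known. For 1 gene that met the rule the result is not reported here, and that gene is left out of every count, median and plot of the members, whatever its values. In each complex the called members with the largest changes, or else the member with the largest difference, were named, with all SDH genes, all tissue isoforms of complex IV or ATP synthase, all members called with time or interaction, and the largest called genes of the other lists. Other genes named were chosen after their values were seen. Alternatives were scaling to the 75th percentile, normexp (offset 50), the authors' values, other dim-probe filters, the mean of a gene's probes, normalisation over 6 arrays, a replicate block, leaving out each array, and SAM at 5% false discovery over 20 assignments.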

Additional observations from a re-analysis of the deposited data

Results flagged for a closer look

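The knockdown effect on 3 respiratory chain genes differed between 48 h and 24 h in the 4-group limma model, with 1 array per group at 48 h. For NDUFAF6 (A_33_P3304382) the effect was larger by 1.40 on the log2 scale (adjusted p = 0.0261). For SDHC (A_33_P3326682) it moved by -1.03 (adjusted p = 0.0315), and for UQCRB (A_33_P3299882) by -1.52 (adjusted p = 0.0443). For NDUFAF6 most of the difference lay in the single siControl array at 48 h (6.47), and the siRND3 signal changed by 0.17 with time. None of the 3 genes passed when any siControl array at 24 h was left out. In each of these genes another tested probe did not pass, and the cause of the disagreement between probes was not tested.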

How the results depend on the processing

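NDUFV2, SDHC and UQCRB were called lower at 24 h under all alternatives run. COX4I2 made a count of 1 called higher under the filter on all 6 arrays and under SAM, and the higher count was 0 to 1 when each array was left out. The lower count was 3 to 4, ATP5MJ being added without siControl replicate 3. With the replicate block the same 3 genes were lower. The numbers do not pair the samples (correlations of deviations 0.00192, -0.0118 and 0.128), and over all probes the paired fit called 589 higher and 1062 lower in place of 1515 and 1835.

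The time tests, which rest on 1 array per group at 48 h, were less stable. The interaction count was 0 with the mean of a gene's probes and 0 to 1 with an array left out, and UQCRB was also lost from it with the authors' values and with no filter. The count with time in siControl was 2 under normexp and 0 to 1 with an array left out. The count with time in siRND3 was 5 under normexp, 1 with the mean of probes and 1 to 2 with an array left out. The causes were not tested.

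Differences near 0 changed sign. ATP5MGL was -0.002 under normexp and -0.003 in the authors' values. SDHA was -0.036 and SDHD -0.027 with the mean of probes, against positive values of A_23_P250035 and A_23_P138967. Scaling to the 75th percentile gave 0.007 for SDHA A_33_P3399492 and 0.008 for SDHD A_32_P155631.
With each array left out in turn, ATP5MGL ran from -0.035 to 0.118, SDHA from -0.067 to 0.079 (A_23_P250035) and -0.072 to 0.031 (A_33_P3399492), SDHC A_24_P233850 from -0.134 to 0.043 and SDHD A_32_P155631 from -0.059 to 0.064.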
